A study of Mus musculus with 8 samples.

Results

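Long intergenic noncoding RNAs (lincRNAs) are transcripts from genes that lie between protein-coding genes and encode no known protein. The lincRNAs described here are the rows of the deposited count table that GENCODE M21 annotates as lincRNA and that held at least 50 raw counts in at least 4 of the 8 libraries. There were 153 of them, among 4441 lincRNA rows and 39056 rows in all. Of the other lincRNA rows, 3182 had no count in any library and 1106 had counts but fell below the rule. The members were thus chosen by their measured counts in the libraries that are compared, and their own changes are in part a description of that choice.

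The RNA came from CD4+ T cells of 2 clones of T cells, SAS and ANT, with 4 libraries each. In both clones the bone marrow cells carried CD4-Cre and a transgene for the beta chain of the T cell receptor (TCRβtg), lacked the endogenous alpha chain gene (Tcra-/-), were of C57BL/6J strain, and were given a TCRα chain by a retrovirus, SAS in the one clone and ANT in the other. Cells were sorted by flow cytometry from spleen and lymph nodes that had been pooled. The age of the animals is not given, and the labels do not say that each library came from its own animal. A p-value thus sets the difference between the clones against the spread of these libraries, which may not be a spread between animals. The series title concerns self-reactive CD4+ cells that resemble T follicular helper (Tfh) cells at steady state, and SAS against ANT addresses how the 2 clones differ.

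A lincRNA is made like a messenger RNA, by RNA polymerase II, and is often spliced and polyadenylated, but many are kept in the nucleus and degraded quickly. Some are precursors that are cut into microRNAs or carry small nucleolar RNAs in their introns, some build nuclear bodies, and some act on the gene next to them or are a by-product of its promoter. In T cells, the microRNA precursors Mir155hg, Mir17hg and Mir142hg and the RNA Ifngas1, which lies beside the interferon gamma gene, are among the best described.

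Of the members searched, 10 contained mature microRNAs on their own strand, 32 in all, in the RefSeq table (GRCm38.p6). Not every chromosome was searched, so hosts may be missing from this count. A microRNA pairs with its targets mainly through its seed, bases 2 to 8, which is in capitals in the sequences that follow. They are shown because the host RNAs differed in how they changed between SAS and ANT. From Mir155hg (chr16:84703167-84715245, plus strand), which was higher in SAS, the arms of miR-155 are at chr16:84714143-84714165 and chr16:84714182-84714202.
miR-155-5p: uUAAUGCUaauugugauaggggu
miR-155-3p: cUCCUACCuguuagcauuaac
From A430106G13Rik (chr1:137966531-137969918, plus strand), also higher in SAS, miR-181b-5p is at chr1:137966650-137966673.
miR-181b-5p: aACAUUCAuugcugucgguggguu
From E130102H24Rik (chr4:101346531-101356735, minus strand), which was higher in ANT, miR-101a-3p is at chr4:101346957-101346977.
miR-101a-3p: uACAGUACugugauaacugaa
From Ftx (chrX:103560907-103623790, minus strand), also higher in ANT, miR-374b-5p and miR-421-5p are at chrX:103573112-103573133 and chrX:103572966-103572986.
miR-374b-5p: aUAUAAUAcaaccugcuaagug
miR-421-5p: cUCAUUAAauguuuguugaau
Mir17hg (chr14:115042879-115046727, plus strand), Mir142hg (chr11:87755577-87757270, plus strand) and 6720427I07Rik (chr13:48532905-48546500, minus strand) were not called different. In Mir17hg, miR-17-5p (chr14:115043684-115043706) and miR-20a-5p (chr14:115044183-115044205) share the seed AAAGUGC, and miR-19a-3p (chr14:115044048-115044070) and miR-19b-3p (chr14:115044358-115044380) share GUGCAAA. In 6720427I07Rik, let-7d-5p, let-7f-5p and let-7a-5p share GAGGUAG, of which the first (chr13:48536078-48536099) is shown. The arms of miR-142a are at chr11:87756867-87756887 and chr11:87756903-87756925.
miR-17-5p: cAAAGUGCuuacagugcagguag
miR-20a-5p: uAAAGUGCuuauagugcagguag
miR-19a-3p: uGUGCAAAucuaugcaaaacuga
miR-19b-3p: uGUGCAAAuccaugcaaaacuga
let-7d-5p: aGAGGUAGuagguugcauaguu
miR-142a-5p: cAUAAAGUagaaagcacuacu
miR-142a-3p: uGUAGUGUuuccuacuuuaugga
The table was of gene counts, so the mature microRNAs themselves were not measured.

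Many members start beside a protein-coding gene. In 20 of them the start lay within 500 bases of a coding start that points the other way, so that 1 stretch of DNA holds both starts. The RefSeq promoter windows of 3 such pairs (GRCm38.p6, 250 bases before to 50 bases after the RefSeq coding start) are printed with the bases between the 2 GENCODE starts in capitals. They are shown because the pairs differ in what the lincRNA and its neighbour did. The GENCODE coding start can differ from that of RefSeq, and is base 197 of the Sypl window, 251 of Tgif2 and 294 of Fam120a. Sypl has 2 windows in RefSeq, of which the first is printed. In the windows of Sypl (chr12:32953695-32953994, plus strand, the start shared with 4933406C10Rik) and Tgif2 (chr2:156839757-156840056, plus strand, shared with Gm14230), both transcripts were higher in SAS. In the window of Fam120a (chr13:48968011-48968310, minus strand, shared with Fam120aos), the lincRNA was higher in ANT and the coding gene was not called.
Sypl: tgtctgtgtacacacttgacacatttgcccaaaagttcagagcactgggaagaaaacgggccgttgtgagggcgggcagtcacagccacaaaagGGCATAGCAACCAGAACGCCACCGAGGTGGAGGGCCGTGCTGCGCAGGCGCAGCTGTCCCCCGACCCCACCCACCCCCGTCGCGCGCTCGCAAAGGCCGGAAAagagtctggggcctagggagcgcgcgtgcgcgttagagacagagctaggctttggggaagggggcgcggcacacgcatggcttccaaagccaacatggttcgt
Tgif2: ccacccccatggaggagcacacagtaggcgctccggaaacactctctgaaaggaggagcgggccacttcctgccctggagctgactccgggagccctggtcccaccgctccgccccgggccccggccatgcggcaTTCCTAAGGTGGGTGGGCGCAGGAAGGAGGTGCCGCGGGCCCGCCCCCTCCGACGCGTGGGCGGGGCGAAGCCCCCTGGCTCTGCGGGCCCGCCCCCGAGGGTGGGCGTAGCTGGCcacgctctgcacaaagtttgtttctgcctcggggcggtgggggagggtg
Fam120a: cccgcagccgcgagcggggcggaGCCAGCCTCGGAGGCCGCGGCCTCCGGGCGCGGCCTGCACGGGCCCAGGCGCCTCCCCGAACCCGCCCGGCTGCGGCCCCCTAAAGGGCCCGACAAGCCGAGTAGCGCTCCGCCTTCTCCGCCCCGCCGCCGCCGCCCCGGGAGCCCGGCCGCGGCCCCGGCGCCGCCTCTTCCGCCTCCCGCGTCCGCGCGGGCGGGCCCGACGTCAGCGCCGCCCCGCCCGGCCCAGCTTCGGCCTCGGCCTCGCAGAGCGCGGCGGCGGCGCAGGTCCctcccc
The windows were 62.7%, 72.3% and 84.3% G or C. On both strands, GGGCGG (a GC box, the site of Sp factors) occurred once in the Sypl window, 5 times in that of Tgif2 and 7 times in that of Fam120a, and it is in 35.7% of all 32851 windows in the table. GCGNGGGCG (the site of EGR factors) was found in the Tgif2 and Fam120a windows, overlapping a GC box in each, and is in 5.55% of all windows. TGANTCA (AP-1), TGACGTCA (CRE), AAAGGTCA (NBRE, the site of NR4A receptors) and CCAAT were not found in these 3 windows, and are in 7.81%, 1.79%, 1.51% and 37.4% of all windows.

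In SAS cells the members that rose most were the miR-155 precursor Mir155hg, the interferon gamma neighbour Ifngas1, an RNA that overlaps the transcription factor gene Sox4, and 3 RNAs with no described role. Those that fell most included the miR-101a precursor E130102H24Rik and Gm9889, which starts beside the gene of the egress receptor S1pr1. Each of these RNAs reached the minimum count of the rule only in the clone where it was higher, so the rule favoured its direction. The abundant nuclear RNAs Malat1 and Neat1 were not called different. In all, 69 of the 153 members were called at an adjusted p under 0.05, that is 45.1%, against 37.4% of all 12619 genes tested. Of these, 24 were higher in SAS (15.7% of the members, against 19.8% of all genes) and 45 were higher in ANT (29.4%, against 17.7%). The median log2 fold change (here log2 change, SAS minus ANT) was -0.14 over the members and -0.00 over all genes tested. Calls of at least 2-fold went to 17 members higher in SAS and 23 higher in ANT, where all genes had 10.7% and 5.25%. The libraries of the clones did not overlap for 28 members with SAS above and 45 with ANT above. Over all genes tested this held for 38.1%, that is 20.5% with SAS above and 17.7% with ANT above. DESeq2 called 73 members, where it called 41% of all genes, and limma-voom called 71, where it called 37.1%.

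**Figure D1:**
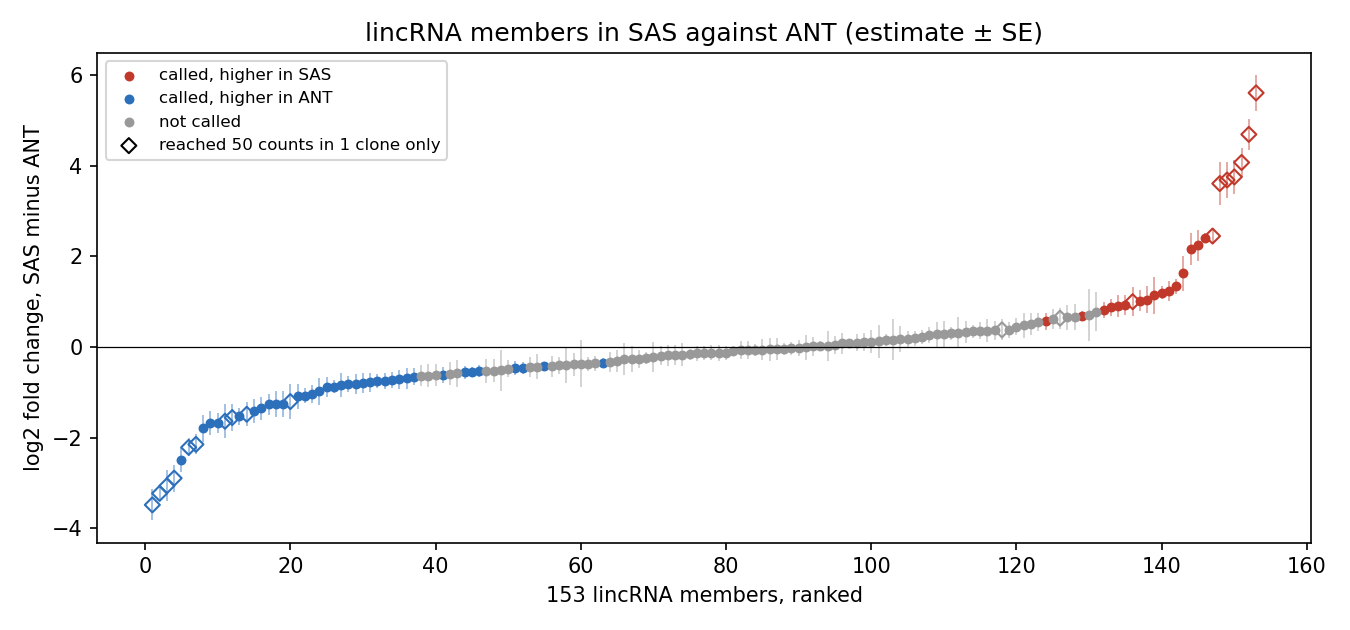
Log2 change (SAS minus ANT, vertical axis) of the 153 lincRNA members, ranked from lowest to highest, with bars for the standard error. Red marks the 24 called higher in SAS, blue the 45 called higher in ANT, grey the 84 not called, and open diamonds the members that reached 50 counts in the libraries of 1 clone only, which fill most of both ends.

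The rule itself fixes part of these counts. In the plot of ranked changes, 10 members reached 50 counts only in SAS libraries and 10 only in ANT libraries, so the rule favoured a difference in level among them. Of the first 10, 8 were called, all higher in SAS, and of the 2 not called Gm15706, a member at the limit chosen after its values were seen, overlapped, with 1.52 to 2.59 CPM in SAS, against 1.45 to 1.76 CPM in ANT (adjusted p = 0.236). Of the other 10, all were called, all higher in ANT. Among the 133 members that reached 50 counts in at least 1 library of each clone, 51 were called, or 38.3%, close to the 37.4% of all genes. These were split into 16 higher in SAS (12.03%) and 35 higher in ANT (26.3%), against 19.8% and 17.7% of all genes. The median of these 133 was -0.14. The members just inside the rule were Lockd, Gm15706, D930028M14Rik and Gm47230, each with 50 counts in the fourth-highest library, and those just outside were Gm43062 with 49, C530050E15Rik with 48 and Gm12847, Meg3 and Gm27010 with 47. Of the lincRNA rows with counts that fell below the rule, 144 could be tested. Of these, 27 were called higher in SAS and 18 higher in ANT, where all genes had 19.8% and 17.7%. Unlike the members, these rows had fewer calls on the ANT side than on the SAS side.

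Levels are given in CPM, the count per 1e6 of the scaled library size. The mean level of the members ran from 1.12 to 3167 CPM, with a median of 5.01 CPM. Only 7 reached 100 CPM, and 76 were under 5 CPM. The median exonic length was 2373 bases, against 4527.5 bases in protein-coding genes tested, and 27 members had transcripts of 1 exon only. Exons of 54 members overlap an exon of another gene, 41 of them on the opposite strand. The libraries were strand-specific, per the labels, but the strand setting of the counting is not given. Reads of such a member and of its overlapping partner may therefore not be separable. As these are bulk samples, fewer cells that make an RNA and less of it per cell cannot be told apart.

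Library totals ran from 27600959 to 31810799 counts. Defining transcripts of CD4+ T cells were present in both clones, with Cd4 at 907 CPM in SAS, against 936 CPM in ANT, and Cd3e at 507 CPM in SAS, against 515 CPM in ANT. Of the 6 such markers the alpha chain constant gene Trac alone was called, at 202 CPM in SAS, against 318 CPM in ANT (-0.65, adjusted p = 0.000293). Of 6 B cell markers, 0 were called higher in SAS and 2, Ighm and Ighd, higher in ANT, and Ighd lost its call on leaving out any 1 library other than SAS replicate 2 and ANT replicate 5. Their summed level was 127 to 188 CPM in SAS libraries, against 643 to 697 CPM in ANT libraries, nearly all of it Ighm, while Cd79a and Ms4a1 were under 1.2 CPM in every library. The CD8 T cell marker Cd8b1 had 2.42 CPM in SAS, against 33.6 CPM in ANT (-3.80, adjusted p = 0.000109). Cd8a, the other CD8 T cell marker of the list, had 0.916 CPM in SAS, against 2.56 CPM in ANT, and was not called (-1.49, adjusted p = 0.0919). The NK marker Klrb1c had 0.792 CPM in SAS, against 0.0345 CPM in ANT (4.33, adjusted p = 0.000385). The other NK markers of the list, Ncr1 and Klre1, had 0 counts in every library. Of the myeloid markers, Itgam was higher in SAS, at 1.42 CPM, than in ANT, at 0.365 CPM (1.95, adjusted p = 0.00229), and Cd68 was lower in SAS, at 2.60 CPM, than in ANT, at 4.32 CPM (-0.73, adjusted p = 0.0153). The part of these markers in the lincRNA results was not tested. All libraries expressed the Y-linked gene Ddx3y at like levels, 260 to 293 CPM in SAS, against 262 to 336 CPM in ANT.

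The microRNA precursors among the members went in different directions. Mir155hg (ENSMUSG00000097418.7), the precursor of miR-155, which activated lymphocytes make, had 4.66, 2.77, 5.11 and 5.27 CPM in SAS, against 0.103, 0.221, 0.180 and 0.172 CPM in ANT. Every SAS library was above every ANT library, and SAS replicate 2 was the lowest of its clone. The mean was 4.45 ± 1.15 CPM in SAS, against 0.169 ± 0.0486 CPM in ANT (SD, n = 4 each), a log2 change of 4.69 (SE 0.33, adjusted p = 3.55e-06 by edgeR's quasi-likelihood test with Benjamini-Hochberg adjustment). It reached 50 counts in SAS only. A430106G13Rik, which covers miR-181b-1 and was chosen after its values were seen, had 3.47, 5.12, 5.004 and 2.44 CPM in SAS, against 0.966, 0.625, 2.02 and 1.59 CPM in ANT. Its groups did not overlap, with a log2 change of 1.62 (SE 0.38, adjusted p = 0.00702). In mice, miR-181 family members are known to tune T cell receptor signalling during development.

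E130102H24Rik, which covers miR-101a, had 1.40, 1.05, 1.24 and 1.06 CPM in SAS, against 6.28, 5.66, 5.70 and 4.55 CPM in ANT. All SAS libraries were below all ANT libraries, and the log2 change was -2.22 (SE 0.20, adjusted p = 1.52e-05). This RNA reached 50 counts in ANT only. Mir17hg, the precursor of the miR-17 to miR-92a cluster, which promotes proliferation and Tfh differentiation in mouse T cells, had 19.5, 24.5, 28.6 and 16.5 CPM in SAS, against 24.6, 24.3, 24.04 and 24.6 CPM in ANT. The SAS libraries were spread on both sides of the ANT libraries, and Mir17hg was not called (log2 change -0.13, adjusted p = 0.566). Mir142hg, the precursor of the blood cell microRNA miR-142, averaged 46.0 ± 10.5 CPM in SAS, against 52.6 ± 13.6 CPM in ANT, and was not called either (-0.19, adjusted p = 0.507). The let-7 host 6720427I07Rik averaged 3.92 ± 1.29 CPM in SAS, against 6.09 ± 0.427 CPM in ANT, with a log2 change of -0.64 that did not pass the threshold (adjusted p = 0.0533). Of the microRNA host list, 7 genes were tested. Mir155hg, Rian and Meg3 were called higher in SAS and 0 higher in ANT, where 19.8% and 17.7% of all genes were called. The level of Rian and Meg3 in SAS lay mostly in replicate 2, as given further on.

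Hosts of small nucleolar RNAs, which guide the modification of ribosomal RNA, were either lower in SAS or not called. Snhg12 had 46.8, 32.0, 33.0 and 46.1 CPM in SAS, against 74.1, 75.7, 59.5 and 56.7 CPM in ANT, a log2 change of -0.75 (SE 0.16, adjusted p = 0.00438) with no overlap. Epb41l4aos had 12.6, 7.61, 12.1 and 9.41 CPM in SAS, against 20.2, 19.6, 18.3 and 15.6 CPM in ANT, a change of -0.82 (SE 0.17, adjusted p = 0.00419), also with no overlap. Snhg6 averaged 25.1 ± 2.75 CPM in SAS, against 26.6 ± 1.82 CPM in ANT, and Snhg20 17.3 ± 2.15 CPM in SAS, against 17.9 ± 1.86 CPM in ANT, and neither was called (adjusted p = 0.598 and 0.803). Of the 13 tested genes in the list of such hosts, members or not, 0 were higher in SAS and 4 were higher in ANT, where 19.8% and 17.7% of all genes were called, and the median log2 change was -0.05. The other called genes were Snhg3 (-0.34) and Snhg8 (-0.76), which are not members. Snhg3 lost its call on leaving out any 1 library other than SAS replicate 1 and ANT replicate 5. Gas5, the most abundant host, had 412 CPM in SAS, against 414 CPM in ANT, and was not called (adjusted p = 0.976).

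**Figure D2:**
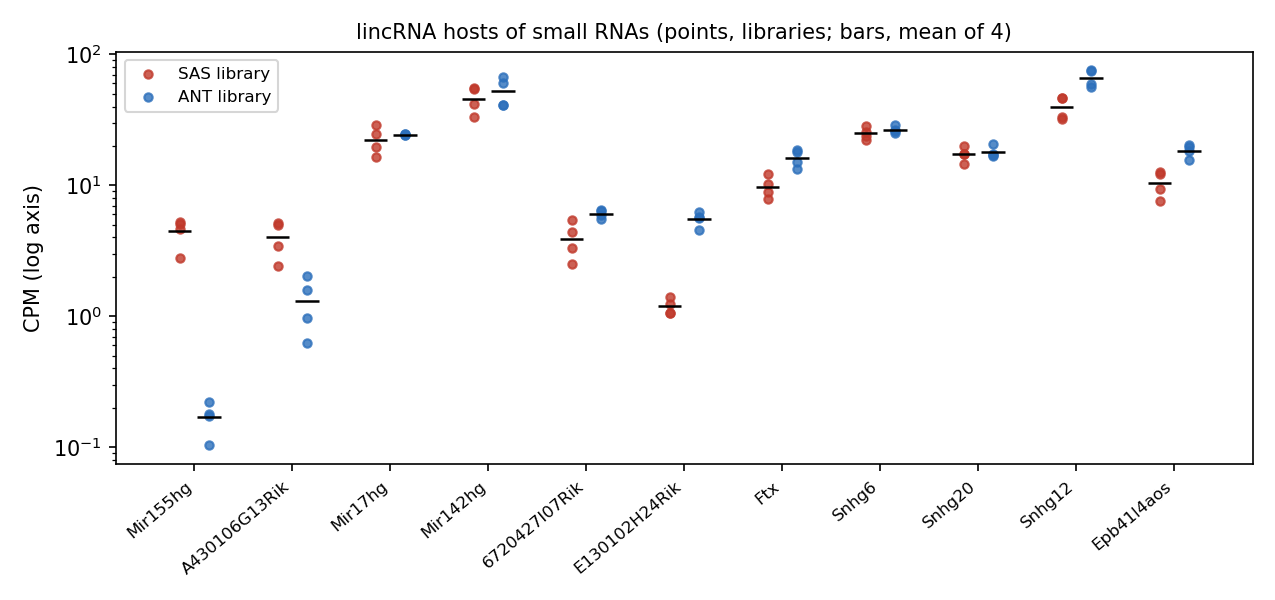
Level in CPM (log axis) of the lincRNA members that host microRNAs (Mir155hg to Ftx) or small nucleolar RNAs (Snhg6 to Epb41l4aos), with 1 point per library, SAS in red on the left and ANT in blue on the right of each pair, and a bar at the mean of 4. Mir155hg stands at 4.45 CPM in SAS, against 0.169 CPM in ANT, E130102H24Rik at 1.19 CPM in SAS, against 5.55 CPM in ANT, and the points of Mir17hg, Mir142hg, Snhg6 and Snhg20 overlap.

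The plot of host levels shows both sides of this group. Precursors such as Mir155hg and E130102H24Rik differ by more than the spread of either clone, and more abundant hosts such as Mir17hg and Mir142hg overlap. The 2 members from the X inactivation region, which overlap each other on opposite strands, changed in opposite directions. Jpx, an activator of Xist, had 4.69, 4.49, 4.14 and 5.11 CPM in SAS, against 3.41, 3.49, 3.21 and 2.38 CPM in ANT. It was higher in SAS by 0.56 on the log2 scale (SE 0.18, adjusted p = 0.0351), a call that was lost on leaving out any 1 library other than SAS replicates 2 and 3 (adjusted p up to 0.0951). Ftx, which holds the miR-374b and miR-421 genes, had 10.3, 8.83, 7.90 and 12.1 CPM in SAS, against 18.5, 17.97, 13.4 and 14.96 CPM in ANT, a log2 change of -0.73 (SE 0.17, adjusted p = 0.00636). Neither gene's clones overlapped. Of 10 tested genes in the list of X inactivation and sex genes, these were the only calls, and the median was -0.08. Over all genes tested, 19.8% were called higher in SAS and 17.7% higher in ANT.

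Ifngas1 (chr10:118502035-118556525, minus strand), which is known in mouse to assist transcription of Ifng, had 7.25, 8.45, 5.28 and 4.82 CPM in SAS, against 0.483, 1.18, 0.216 and 0.241 CPM in ANT. The clones did not overlap, and ANT replicate 3 was the highest of its clone. The log2 change was 3.60 (SE 0.48, adjusted p = 0.000212), and 4.33 without ANT replicate 3. It reached 50 counts in SAS only. Ifng, the interferon gamma gene, starts 115479 bases away and had 0.944, 3.997, 3.69 and 0.610 CPM in SAS, against 0, 0.0735, 0.0360 and 0.138 CPM in ANT, so that it was at a lower CPM than Ifngas1 in every library of both clones. It was also called higher in SAS (5.12, SE 0.85, adjusted p = 0.000944). SAS replicates 2 and 3 were high for Ifng, whereas replicates 1 and 2 were high for Ifngas1.

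AW112010, an interferon-inducible RNA that was shown to yield a small protein in mouse macrophages, went the other way. It had 55.2, 49.2, 46.3 and 50.05 CPM in SAS, against 127, 123, 99.9 and 74.0 CPM in ANT. The SAS libraries were tight and all below the ANT libraries, with a log2 change of -1.08 (SE 0.16, adjusted p = 0.000519). Of 7 tested genes in the list of noncoding RNAs with a described role, Ifngas1 was called higher in SAS and AW112010 higher in ANT. The shares of all genes called in these directions were 19.8% and 17.7%. The other 5 members of that list were not called: Malat1, Neat1, Mirt1, Pvt1 and Lncpint. Pvt1, which lies beside Myc, averaged 12.2 ± 2.07 CPM in SAS, against 11.8 ± 2.68 CPM in ANT (log2 change 0.04, adjusted p = 0.888), while Myc was higher in SAS, at 109 ± 17.9 CPM, than in ANT, at 53.4 ± 25.5 CPM (1.03, adjusted p = 0.0229, and up to 0.0585 without SAS replicate 3 or 6 or ANT replicate 1).

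By CPM, the nuclear body RNAs were the most abundant members apart from Gm42418. Malat1, which sits at nuclear speckles, had 2166, 3877, 2677 and 2311 CPM in SAS, against 2045, 2504, 2955 and 2781 CPM in ANT. SAS replicate 2 was the highest of all 8, and the clones overlapped (log2 change 0.10, SE 0.20, adjusted p = 0.719). Neat1, the scaffold of paraspeckles, had 273, 457, 332 and 346 CPM in SAS, against 315, 343, 585 and 525 CPM in ANT. ANT replicates 4 and 5 were high, the clones overlapped, and it was not called (-0.33, SE 0.22, adjusted p = 0.274). Per kilobase of exon, Malat1 averaged 382 CPM and Neat1 19.1 CPM over the 8 libraries. Of 13 genes for proteins of these bodies, 4 were higher in SAS (against 19.8% of all genes), with 0 higher in ANT and a median of 0.18, and they included Nono (0.31), Rbm14 (0.67) and Srsf1 (0.34). The calls of Nono, Rbm14 and Srsf1 were each lost on leaving out any 1 of 5 or 6 of the 8 libraries, SAS replicates 1, 3 and 6 among them for all. Of 18 tested genes of nuclear RNA decay, Dis3 (0.50), Zfc3h1 (0.38) and C1d (0.40) were higher in SAS, a share below the 19.8% of all genes, with 0 higher in ANT and a median of 0.04. C1d lost its call on leaving out any 1 library other than SAS replicate 2 and ANT replicate 1.

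Among members with no described role, the largest excess in SAS was that of 4833407H14Rik (ENSMUSG00000097779.2, chr19:53460622-53462723, plus strand). It had 16.1, 8.13, 8.66 and 12.6 CPM in SAS, against 0.414, 0.110, 0.144 and 0.241 CPM in ANT. The lowest SAS library was far above the highest ANT library, and the log2 change was 5.60 (SE 0.39, adjusted p = 2.95e-06). It reached the minimum count of the rule in SAS only, so the rule favoured its direction. Its exons overlap those of Mirt1, a member on the opposite strand, which had 58.4, 96.1, 63.1 and 65.7 CPM in SAS, against 61.0, 62.8, 58.1 and 60.8 CPM in ANT. Mirt1 was not called (0.22, adjusted p = 0.274). As the exons overlap and the strand setting of the counting is not given, reads of the pair may not be separable. The nearest coding start is that of Dusp5, a phosphatase of MAP kinases, at 68487 bases, and Dusp5 was higher in SAS (1.41, adjusted p = 0.000883).

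Gm26735 (chr13:28943048-28951671, plus strand) overlaps Sox4, the gene of a transcription factor, on the opposite strand. It had 2.13, 3.05, 3.90 and 2.06 CPM in SAS, against 0.207, 0.110, 0.180 and 0.310 CPM in ANT, a log2 change of 3.75 (SE 0.37, adjusted p = 2.85e-05). This RNA reached the minimum count of the rule in SAS only, so the rule favoured its direction. Sox4 itself had 266, 324, 425 and 276 CPM in SAS, against 26.4, 26.6, 39.4 and 40.7 CPM in ANT, a change of 3.28 (SE 0.21, adjusted p = 1.82e-06). SAS replicate 3 was the highest of its clone for both. Since the exons overlap and the strand setting of the counting is not given, reads of the 2 genes may not be separable.

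Gm31718 had 4.72, 7.33, 5.07 and 3.92 CPM in SAS, against 0.483, 0.294, 0.216 and 0.241 CPM in ANT (log2 change 4.07, adjusted p = 7.03e-06), while its nearest coding gene Tomm20 was not called (0.04). A530021J07Rik had 14.8, 8.03, 10.1 and 10.4 CPM in SAS, against 1.55, 0.809, 0.649 and 0.345 CPM in ANT (3.68, adjusted p = 4.29e-05). Neither RNA's clones overlapped, and each reached 50 counts in SAS only.

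On the SAS side, the largest changes among members that reached 50 counts in both clones were those of 2310001H17Rik, Gm42047 and Gm11579. 2310001H17Rik had 69.6, 62.6, 58.3 and 61.2 CPM in SAS, against 12.4, 12.9, 11.2 and 11.03 CPM in ANT, with the smallest adjusted p of any member (log2 change 2.40, SE 0.11, adjusted p = 1.34e-07). It lies 36711 bases from the start of Cd69, an early activation receptor, which averaged 460 ± 128 CPM in SAS, against 270 ± 111 CPM in ANT, and did not pass the threshold (adjusted p = 0.0553). Gm42047 had 138, 123, 117 and 224 CPM in SAS, against 37.9, 19.2, 51.5 and 18.6 CPM in ANT (2.24, SE 0.35, adjusted p = 0.000631). Its neighbour Klhdc4 was higher in SAS as well (0.85, adjusted p = 0.00862). Gm11579 had 6.18, 4.38, 4.14 and 5.65 CPM in SAS, against 1.21, 1.95, 0.829 and 0.552 CPM in ANT (2.17, SE 0.35, adjusted p = 0.000832). It starts 65034 bases from Cd28, the costimulatory receptor, which was higher in SAS (0.74, adjusted p = 0.00237).

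**Figure D3:**
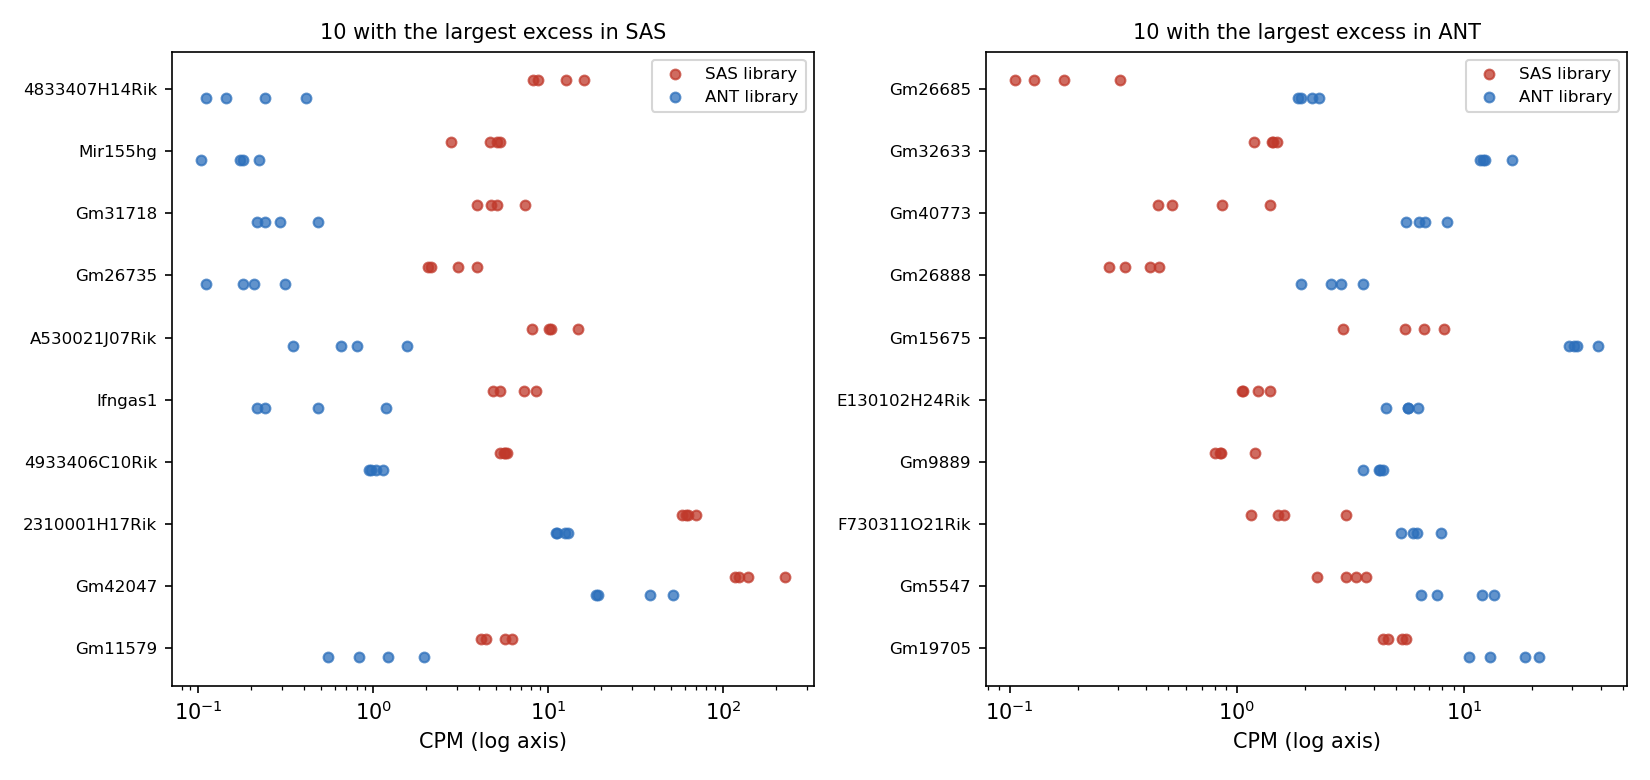
Level in CPM (log axis) in each library of the 10 members with the largest excess in SAS (left panel) and the 10 with the largest excess in ANT (right panel), with SAS points in red drawn above ANT points in blue. In each of the 20 rows the points of the clones do not overlap, from 4833407H14Rik at 8.13 CPM or more in SAS and at most 0.414 CPM in ANT to Gm26685 at no more than 0.305 CPM in SAS and at least 1.86 CPM in ANT.

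In the plot of the extreme members, the ANT side holds RNAs that, other than E130102H24Rik, have no described role. Gm26685 (ENSMUSG00000097281.2, chr1:164503309-164514882, plus strand) had 0.305, 0.105, 0.173 and 0.128 CPM in SAS, against 2.14, 1.91, 2.31 and 1.86 CPM in ANT, the largest fall in SAS among the members (log2 change -3.49, SE 0.34, adjusted p = 2.66e-05). Gm32633 (chr7:64001885-64020959, plus strand) had 1.43, 1.19, 1.45 and 1.51 CPM in SAS, against 11.8, 16.3, 12.2 and 12.4 CPM in ANT, with a change of -3.23 (SE 0.17, adjusted p = 5.66e-07). Gm40773 had 0.518, 1.40, 0.863 and 0.450 CPM in SAS, against 6.73, 8.38, 6.34 and 5.55 CPM in ANT (-3.06, SE 0.34, adjusted p = 6.89e-05). These RNAs and Gm26888 (-2.90), whose exons overlap Tbc1d16 on the opposite strand, reached 50 counts in ANT only. The nearest tested coding genes of Gm26685, Gm32633 and Gm40773 were lower in SAS too, by less: Atp1b1, a subunit of the sodium pump (-1.26), Klf13, a transcription factor (-0.94), and Rap1b, a small GTPase (-0.46). The call of Klf13 was lost without SAS replicate 1, 3 or 6 or ANT replicate 4 or 5 (adjusted p up to 0.0796).

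Gm15675 reached 50 counts in both clones. It had 5.51, 8.13, 6.70 and 2.92 CPM in SAS, against 30.7, 31.4, 29.1 and 39.1 CPM in ANT, a log2 change of -2.49 (SE 0.26, adjusted p = 4.82e-05) with no overlap. F730311O21Rik averaged 1.82 ± 0.817 CPM in SAS, against 6.33 ± 1.12 CPM in ANT (-1.80, adjusted p = 0.000839), and its neighbour Nuak2, a kinase, was lower in SAS by a like amount (-1.70, adjusted p = 0.000363). Gm5547 averaged 3.08 ± 0.620 CPM in SAS, against 9.92 ± 3.40 CPM in ANT (-1.69, adjusted p = 0.000669), while its neighbour Rap1a went the other way (0.73, adjusted p = 0.000952). Gm19705 averaged 4.98 ± 0.559 CPM in SAS, against 15.9 ± 5.04 CPM in ANT (-1.68, adjusted p = 0.000235), with ANT replicates 1 and 3 at 18.6 and 21.5 CPM and ANT replicates 4 and 5 at 13.05 and 10.5 CPM.

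The remaining named members followed no single direction. Fam120aos was lower in SAS (-0.81, adjusted p = 0.0150), at 3.75, 4.84, 5.97 and 3.92 CPM in SAS, against 10.1, 9.45, 6.92 and 6.03 CPM in ANT. Lncpint, a p53-induced RNA, had 1.01, 4.70, 2.52 and 1.09 CPM in SAS, against 2.86, 2.65, 3.57 and 4.17 CPM in ANT, and was not called (-0.51, adjusted p = 0.409). SAS replicate 2 was the highest of all for Lncpint. Lockd, which lies downstream of the cell cycle inhibitor gene Cdkn1b, averaged 1.51 ± 0.249 CPM in SAS, against 2.32 ± 0.501 CPM in ANT (-0.61, adjusted p = 0.0745), while Cdkn1b was called lower in SAS (-1.03, adjusted p = 0.000171). Ino80dos (0.54, adjusted p = 0.0515), Lppos (-0.31), Dubr (0.17), Tmem250-ps (0.09) and Gdap10 (-0.01) were not called. The abundant 1700020I14Rik had 248, 247, 236 and 226 CPM in SAS, against 223, 229, 223 and 228 CPM in ANT, and was not called (0.09, adjusted p = 0.456).

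The coding gene with the nearest start lay at a median of 17945 bases from the start of the member, and for 123 members that gene was tested. Of 20 members higher in SAS, the neighbour was also higher in SAS for 12 (60%), higher in ANT for 3 and not called for 5. Of 36 members higher in ANT, the neighbour was also higher in ANT for 12 (33.3%), higher in SAS for 7 and not called for 17. Among protein-coding genes, the nearest other coding gene had the same call for 25.6% of those higher in SAS and 29.2% of those higher in ANT. Across genes, Spearman's rho between the changes of a member and of its neighbour was 0.32 and Pearson's r 0.28 (n = 123), against 0.17 and 0.17 for coding genes and their neighbours (n = 7887). These points share the same 8 libraries, and genes are not independent replicates. The members include Gm26735 and Gm11110, which overlap their neighbours Sox4 and Tnfsf9, and reads of these pairs may not be separable. They also include RNAs that reached the minimum count of the rule only in the clone where they were higher. The coding genes were not chosen by that rule, so neither the shares nor the correlations compare like with like.

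**Figure D4:**
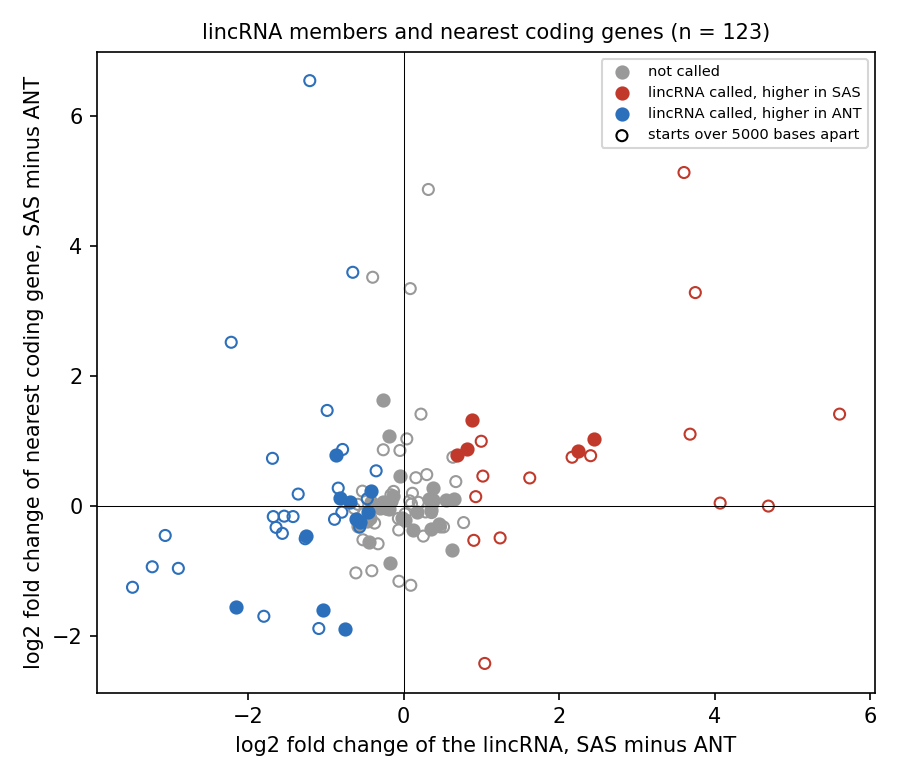
Log2 change (SAS minus ANT) of each lincRNA member on the horizontal axis and of its nearest protein-coding gene on the vertical axis, for the 123 members whose neighbour was tested. Red marks members called higher in SAS, blue those called higher in ANT and grey those not called, and filled points have starts at most 5000 bases apart, where the 5 red points are all above 0.

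In the plot of neighbours, starts at most 5000 bases apart gave 5 members higher in SAS, each with a neighbour also higher in SAS. Of the 382 protein-coding genes higher in SAS with a coding neighbour that close, 17.8% had one also higher in SAS. The 5 members were 4933406C10Rik, Gm42047, Gm11110, Gm14230 and AI504432, of which the last 3 were chosen after their values were seen. 4933406C10Rik reached 50 counts in SAS only, so the rule favoured its direction, and the other 4 reached it in both clones. 4933406C10Rik had 5.27, 5.61, 5.59 and 5.78 CPM in SAS, against 1.14, 1.03, 0.937 and 0.965 CPM in ANT (log2 change 2.45, SE 0.18, adjusted p = 3.92e-06). It starts 102 bases from Sypl, a vesicle membrane protein gene, which had 96.1, 85.1, 105 and 90.7 CPM in SAS, against 51.4, 39.4, 46.5 and 48.0 CPM in ANT (1.03, SE 0.11, adjusted p = 6.08e-05). Gm14230 averaged 6.51 ± 1.12 CPM in SAS, against 3.69 ± 0.268 CPM in ANT (0.82, adjusted p = 0.00372). It starts 115 bases from Tgif2, a repressor of TGF-beta target genes, which averaged 42.4 ± 3.26 CPM in SAS, against 23.2 ± 1.92 CPM in ANT (0.87, adjusted p = 0.000108).

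AI504432 was the most abundant of these, with 260, 302, 297 and 282 CPM in SAS, against 165, 160, 179 and 207 CPM in ANT (0.68, SE 0.11, adjusted p = 0.000720). It starts 3335 bases from Kcna3, the main voltage-gated potassium channel of T cells, which averaged 67.6 ± 8.001 CPM in SAS, against 39.3 ± 6.44 CPM in ANT (0.78, adjusted p = 0.00145). The next member along, A930002I21Rik, was higher in SAS as well (1.04, adjusted p = 0.0214, and up to 0.0574 without SAS replicate 1 or 6 or ANT replicate 5), but its own nearest coding gene, the channel gene Kcna2, was lower in SAS (-2.43, adjusted p = 2.82e-05), at 8.58 ± 3.41 CPM in SAS, against 46.1 ± 4.89 CPM in ANT. Gm11110 overlaps Tnfsf9, the ligand of 4-1BB, on the opposite strand, and the changes were 0.87 and 1.31 (adjusted p = 0.00528 and 0.00162). Because of the overlap, reads of this pair may not be separable.

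Of 11 members higher in ANT with a tested neighbour at most 5000 bases away, the neighbour was higher in ANT for 4 (36.4%), higher in SAS for 0 and not called for 7. The share among the 369 protein-coding genes higher in ANT with a neighbour that close was near it, at 31.4%. Gm9889 (chr3:115715150-115716728, plus strand) reached 50 counts in ANT only. It had 0.853, 0.841, 1.21 and 0.803 CPM in SAS, against 4.28, 4.41, 4.22 and 3.59 CPM in ANT (-2.15, SE 0.22, adjusted p = 3.57e-05). It starts 78 bases from S1pr1, the receptor by which T cells leave lymph nodes, which had 232, 218, 240 and 240 CPM in SAS, against 696, 823, 593 and 619 CPM in ANT (-1.55, SE 0.12, adjusted p = 6.10e-06). The clones overlapped for neither of them. 4933406I18Rik, chosen after its values were seen, averaged 1.82 ± 0.363 CPM in SAS, against 3.73 ± 0.147 CPM in ANT (-1.03, adjusted p = 0.00269), and Pde3b, a cyclic nucleotide phosphodiesterase gene 120 bases away, was lower in SAS too (-1.60, adjusted p = 0.00111). Gm39323, likewise chosen afterwards, averaged 9.21 ± 2.19 CPM in SAS, against 15.5 ± 1.27 CPM in ANT (-0.75, adjusted p = 0.00618). It starts 2325 bases from Thy1, the surface glycoprotein of T cells, which averaged 248 ± 35.3 CPM in SAS, against 917 ± 91.7 CPM in ANT (-1.89, adjusted p = 3.21e-06).

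Sharing a start did not go with sharing a call in every case. Of the 20 members that start within 500 bases of a coding gene pointing the other way, 6 were higher in ANT. For Gm9889 and 4933406I18Rik the partner was also higher in ANT, and for Fam120aos, 5031425E22Rik, Gm20186 and Gm7160 the partners Fam120a, Kmt2e, Lsm8 and Zcchc2 were not called, at 0.11, -0.09, -0.20 and 0.06. Of these RNAs, 5031425E22Rik lost its call without SAS replicate 1, 3 or 6 or ANT replicate 4, and Gm7160 without any 1 library other than SAS replicates 2 and 3. Of the 12 not called, 10 had a partner that was not called. At larger distances, opposite pairs included Gm47230, higher in ANT (-1.21, adjusted p = 0.0312) and 17731 bases from Cxcr5, the homing receptor of Tfh cells, which averaged 59.4 ± 22.3 CPM in SAS, against 0.634 ± 0.146 CPM in ANT (6.54, adjusted p = 3.43e-07). The call of Gm47230 was lost without SAS replicate 1, 3 or 6 or ANT replicate 1 or 3 (adjusted p up to 0.0876). E130102H24Rik was lower in SAS and its nearest coding gene Ak4, 62542 bases away, was higher in SAS (2.51, adjusted p = 0.000145). C920006O11Rik (-0.65, adjusted p = 0.0217) lay 6860 bases from Gsta4, a glutathione transferase gene, which was higher in SAS (3.59, adjusted p = 6.23e-06).

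Members that lie close to each other were examined in the same way. There were 12 pairs of members with gene bodies at most 100000 bases apart. Both were higher in ANT in the pairs Gm33994 and Gm19705 (-1.42 and -1.68) and Gm30373 and Gm39323 (-1.09 and -0.75), and both higher in SAS in the pair AI504432 and A930002I21Rik. The pairs Gm43848 and Gm5547 (1.02 and -1.69) and Jpx and Ftx were called in opposite directions. In the other 7 pairs at least 1 member was not called.

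SAS replicate 2 stood apart from the other libraries in its lincRNA counts. All lincRNA rows together made up 1.70% of its counts, against 0.628% to 0.925% in the other SAS libraries and 0.632% to 0.920% in ANT libraries. Most of the excess came from Gm42418 and Gm26917 (chr17:39843013-39846341, plus strand), which made up 0.990% of the counts in SAS replicate 2, against 0.129% to 0.383% in the other SAS libraries and 0.138% to 0.402% in ANT libraries. Gm42418 (chr17:39846958-39848788, plus strand) overlaps a ribosomal RNA gene, CT010467.1 in GENCODE, and the 18S-related Rn18s-rs5 in RefSeq. It had 1136, 9004, 3353 and 2192 CPM in SAS, against 1714, 3975, 2694 and 1272 CPM in ANT. The clones overlapped, it was not called (log2 change 0.70, adjusted p = 0.365), and the change was -0.12 without SAS replicate 2. Gm26917 had 112, 572, 427 and 296 CPM in SAS, against 124, 134, 229 and 153 CPM in ANT, and its call as higher in SAS (1.14, adjusted p = 0.0488) was lost without SAS replicate 2 (0.80, adjusted p = 0.143). Without both rows, the members took 0.686% of the counts in SAS replicate 2, against 0.482% to 0.525% in the other SAS libraries and 0.441% to 0.552% in ANT libraries.

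**Figure D5:**
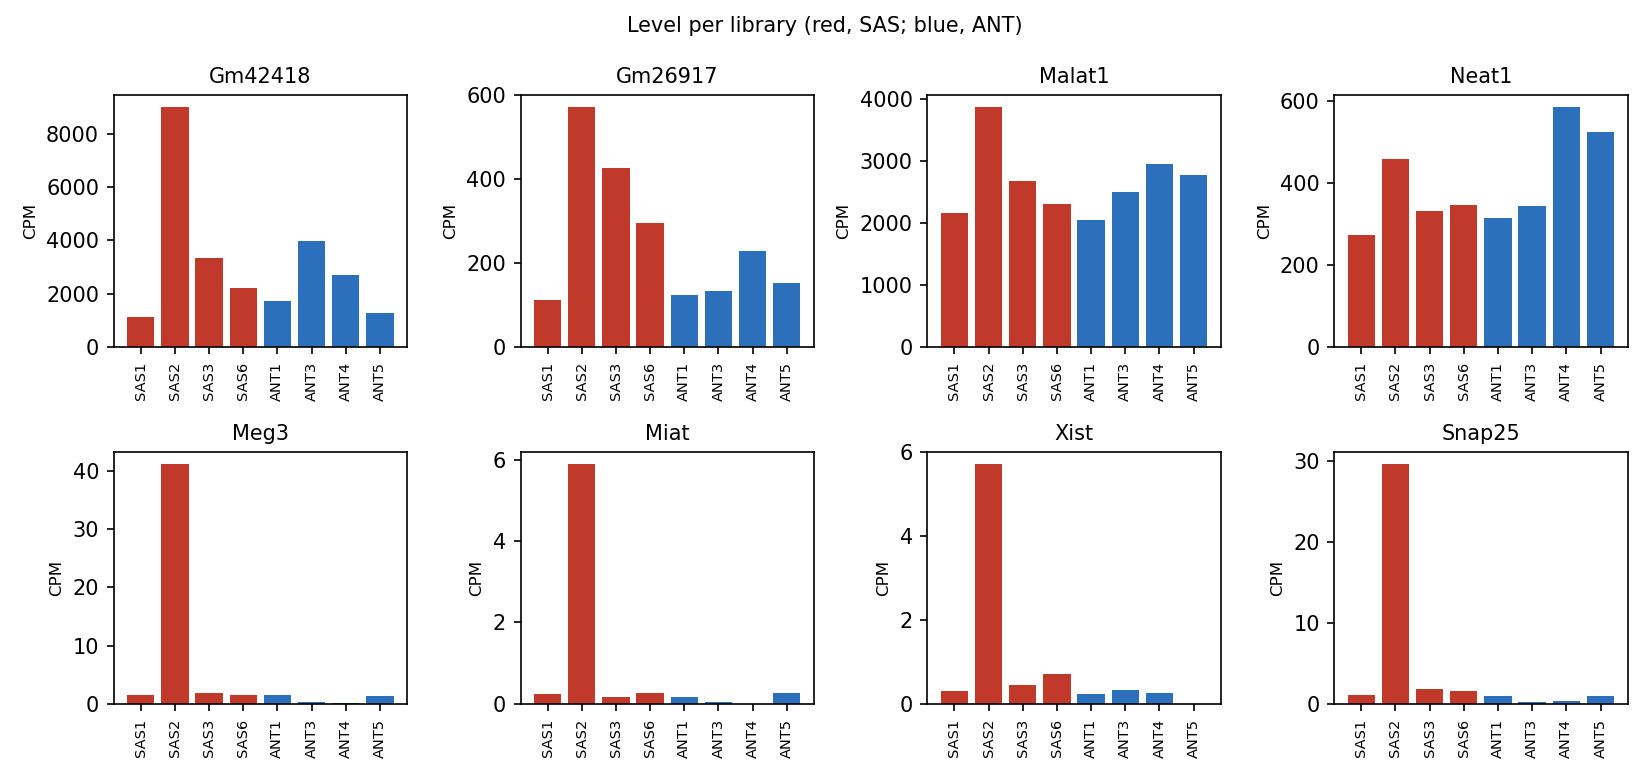
Level in CPM in each of the 8 libraries (linear axes from 0, SAS bars in red on the left, ANT bars in blue on the right, 1 bar per library) of 4 abundant members in the upper row and of 3 lincRNAs below the rule and the nervous tissue gene Snap25 in the lower row. SAS replicate 2 is the highest bar for Gm42418, Gm26917 and Malat1, and stands alone for Meg3, Miat, Xist and Snap25.

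As the plot by library shows, SAS replicate 2 was also alone in several lincRNAs that fell below the rule. Among rows with at least 20 counts in a library and at least 3 times the CPM of every other library, SAS replicate 2 had 9 and the other libraries 0 or 1 each. The 9 included Meg3, an imprinted RNA of brain and other tissues, with 1.49, 41.1, 1.90 and 1.51 CPM in SAS, against 1.48, 0.404, 0.216 and 1.28 CPM in ANT. Its log2 change was 3.75 (adjusted p = 0.0327), and 0.94 without that library. The call was lost without SAS replicate 2 (adjusted p = 0.209) and also without any 1 of the ANT libraries. Rian, from the same imprinted locus, had 8.55 CPM in SAS replicate 2 and at most 0.552 CPM in any other library, and its log2 change was 4.60 with that library and 2.07 without it. The call of Rian was lost without ANT replicate 1 or 3 (adjusted p up to 0.0683). Miat had 5.89 CPM in SAS replicate 2 and at most 0.276 CPM elsewhere. Xist, the RNA that coats the inactive X chromosome, had 5.71 CPM there and at most 0.707 CPM elsewhere. Of 12 nervous tissue genes, a list written after Meg3 and Miat were seen, 11 were highest in SAS replicate 2 and none was at 0 in it. Snap25, a synaptic protein gene, had 29.6 CPM in SAS replicate 2, against 1.16 to 1.90 CPM in SAS replicates 1, 3 and 6 and 0.184 to 0.931 CPM in ANT libraries. The summed level of the list was 450 CPM in SAS replicate 2, against 250 to 278 CPM in SAS replicates 1, 3 and 6 and 212 to 310 CPM in ANT libraries, most of it Mbp. The part of these transcripts in the lincRNA results was not tested beyond the values without this library.

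Few results on the members rested on SAS replicate 2. No member had it 3-fold or more above or below every other SAS library. It was the highest SAS library for 63 members and the lowest for 35. Without it, 63 of the 69 calls were kept and 6 were lost, and the share of all genes called was 33.6%. Lost were Gm26917 and A430110L20Rik (0.997, adjusted p = 0.0318), which were higher in SAS, and Gm37494 (-0.35), Gm20300 (-0.47), C920006O11Rik (-0.65) and E230001N04Rik (-0.84), which were higher in ANT. The 4 ANT-side RNAs kept their sign, with adjusted p between 0.0506 and 0.0806. Lncpint was gained, as lower in SAS (-1.11, adjusted p = 0.0359). Leaving out any 1 of the other libraries lost 5 to 10 calls, and each of these 6 RNAs also lost its call without at least 1 other library. Mir155hg (4.86), Ifngas1 (3.45), 4833407H14Rik (5.73), AW112010 (-1.07), Gm32633 (-3.16) and Gm9889 (-2.11) kept their calls without SAS replicate 2.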

How the data were processed

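The deposited data are a single table of whole-number raw counts, with 39056 versioned Ensembl IDs as rows and 8 libraries as columns, made by the authors. STAR, featureCounts and mm10 are named in the submitters' processing notes. Versions, annotation, strand setting and the handling of multi-mapped reads are not given in the sources used here, so counts of overlapping or repeated genes are uncertain. IDs stripped of their version were matched to GENCODE M21 (38872 matched, 184 did not), which gave biotypes, symbols and coordinates.

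All 8 libraries were fitted with edgeR 4.0.16 in R 4.3.3 (default low-count filter, TMM factors, robust quasi-likelihood test, no covariate). Benjamini-Hochberg adjustment ran over the 12619 genes tested, and a gene was called at an adjusted p under 0.05. Fold changes are SAS over ANT in log2. The standard error is the absolute change divided by the square root of F. CPM use the TMM-scaled library sizes. Depth was similar in all libraries. The code was tested on simulated data. Alternatives were DESeq2 1.42.0, limma 3.58.1 (voom), other scalings, filters and member rules, a replicate block, and leaving out each library.

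The members and lists were chosen with earlier results of these data known. Named are the 5 members of highest mean CPM, the 10 largest non-overlapping calls in each direction with at least 1 CPM in the higher clone, members with a proper name or in a list, members that rest on SAS replicate 2, and nearest coding genes. No test was made over the list of members. A few genes of the lists are not reported here.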

Additional observations from a re-analysis of the deposited data

Results flagged for a closer look

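In 98 sets of 4 libraries, the 2 clones of 49 named members, the library farthest out was compared with the spread of its own clone by Dixon's gap, with a limit of 0.829. Chance passes that limit in about 1 of 20 such sets, and 3 did. Gm9889 had 1.21 CPM in SAS replicate 3, and 0.803 to 0.853 CPM in the other SAS libraries. Gm32633 had 16.3 CPM in ANT replicate 3, and 11.8 to 12.4 CPM in the other ANT libraries. Snhg20 had 20.7 CPM in ANT replicate 4, and 16.7 to 17.2 CPM in the other ANT libraries. None of these was SAS replicate 2.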

How the results depend on the processing

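The number of members called was 69, and 59 to 74 under every alternative with the same members: 59 to 69 on leaving out each library, 73 with DESeq2, 71 with limma-voom, 70 with library size only and 65 with no low-count filter. With Gm42418 and Gm26917 left out of the library totals, an alternative chosen after seeing the data, it was 68. With a minimum of 20, 100 or 50 counts in at least 4, 4 or 5 libraries, it was 90 of 222, 54 of 108 and 51 of 130. Over all genes, calls were 4725, and 3964 to 5798 under the alternatives. With library size only, 64.8% of all calls were higher in SAS, against 52.8% with TMM factors, with members split into 30 on the SAS side and 40 on the ANT side. Of the recomputed changes of named members, 758 kept direction and side of the threshold, 46 lost the threshold, 6 gained it and 21 turned sign, the last all in members that were not called as reported. With library size only, Gdap10 was 0.0801, Snhg20 0.0485 and Snhg6 0.0140. On leaving out each library, Gm42418 ranged from -0.12 to 1.04, Malat1 from -0.11 to 0.20, Tmem250-ps from -0.0299 to 0.21, Pvt1 from -0.11 to 0.14, Gdap10 from -0.12 to 0.0885 and Snhg20 from -0.12 to 0.0234. The cause was not tested.

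Replicate numbers 1 and 3 occur in both clones. The deviations of same-numbered libraries correlated at 0.29 for number 1 and -0.12 for number 3, so the numbers were not taken to pair the samples. SAS replicates 2 and 6 and ANT replicates 4 and 5 share their number with no library of the other clone. A replicate block therefore leaves them out of the difference between clones, which then rests on replicates 1 and 3. Its adjusted p-values are thus not those of a comparison of all 8 libraries. With the block, 74 members (22 higher in SAS, 52 higher in ANT) and 5798 genes were called. Of the 69 members called without it, 60 were kept, 9 were lost and 14 gained. The block gave Gm42418 -0.42, Mirt1 -0.0290, Pvt1 -0.23, Gdap10 0.0708, Snhg20 0.11, Snhg6 0.00881 and Mir142hg 0.0469, all of opposite sign to the values without it, and Gm42418 was then called as lower in SAS (adjusted p = 0.00981). It ended the calls of Jpx (adjusted p = 0.350), Gm26917 (0.671) and A430110L20Rik (0.721), and gained Dubr (0.49, adjusted p = 0.0311). It moved A430110L20Rik to 0.19, Ifngas1 to 2.94 and F730311O21Rik to -2.40.

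A change that was not called is not shown to be absent. Whether depth limits the calls among the 76 members under 5 CPM was not tested.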
